A study of Mus musculus with 7 samples.

Results

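Oxidative phosphorylation subunits encoded in the nucleus were taken by symbol from the gene counts, as the Nduf, Sdh, Uqcr, Cyc1, Cox4 to Cox8 and Atp5 families with pseudogenes left out, which gave 84 of 27179 genes. There were 35 members in complex I, 4 in complex II, 9 in complex III, 20 in complex IV (Ndufa4 and Ndufa4l2 included) and 16 in complex V. RNA was sequenced from femora of 12-week-old female C57BL/6 mice, whose bone ends had been removed and marrow flushed out, with 1 library a mouse. All mice carried Dmp1Cre, a transgene in which the Dmp1 promoter drives Cre recombinase in late osteoblasts and osteocytes. The 3 mice labelled Dmp1Cre.EfnB2f/f also had both copies of Efnb2 floxed, as a target for Cre in those cells. The 4 controls, which the paper calls cousin-bred, were labelled Dmp1Cre. Libraries are called f/f 1 to 3 and control 1 to 4 here, after their labels. Of the parent crosses in the labels, only that of f/f 3 and control 3 held both genotypes.

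Efnb2, which encodes the membrane ligand ephrinB2, had 322, 239 and 224 counts in the libraries labelled f/f and 164, 139, 110 and 117 counts in the controls. Each library labelled f/f was above every control, so the whole-bone counts did not show the loss that the labels name (14.5 ± 3.25 CPM, SD, n = 3, against 7.40 ± 1.08 CPM, SD, n = 4; exact permutation test, two-sided, p = 0.0286, which is the lowest that 35 splits allow). The log2 fold change was 0.96 ± 0.21 (SE, adjusted p = 0.510, edgeR), and 5.04% of all genes tested were separated in this direction. The paper reports Efnb2 lost from sorted osteocytes and kept in other bone cells, which RNA of whole bone does not separate. Counts over a whole gene do not show which exons the reads came from. Groups are named by their labels throughout, and each direction given is that of the labels. Total counts were 17245556 to 22075778 a library. Markers of osteocytes were present (Dmp1 57.1 to 236 CPM), and so were those of skeletal muscle and of red blood cell precursors, whose levels are given further below. The first principal component of all genes tested held 57.5% of the variance and placed controls 1 and 4 (scores of 40.0 and 60.0) apart from the other 5 libraries (scores of -36.2 to -1.99), so counts are also given without these controls.

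The respiratory chain of the inner mitochondrial membrane passes electrons from NADH (complex I) or succinate (complex II) through complex III to oxygen at complex IV, and complex V uses the resulting proton gradient to make ATP. Most subunits are encoded in the nucleus and a few core subunits in mitochondrial DNA. Several nuclear subunits of complex IV exist as isoforms, of which Cox6a2, Cox7a1 and Cox8b are the forms of heart and skeletal muscle and Cox6a1, Cox7a2 and Cox8a their partners in most other tissues.

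The promoters of a muscle isoform and of partners are shown because the results turn on the isoforms. They are RefSeq sequences of GRCm38.p6, from 250 bases before to 50 bases after the gene start, written 5′ to 3′ on the strand of the gene, with motif matches in capitals. Cox8b lies at chr7:140900397-140900696, Cox8a at chr19:7217567-7217866 and Cox6a1 at chr5:115348909-115349208, all on the minus strand.
Cox8b: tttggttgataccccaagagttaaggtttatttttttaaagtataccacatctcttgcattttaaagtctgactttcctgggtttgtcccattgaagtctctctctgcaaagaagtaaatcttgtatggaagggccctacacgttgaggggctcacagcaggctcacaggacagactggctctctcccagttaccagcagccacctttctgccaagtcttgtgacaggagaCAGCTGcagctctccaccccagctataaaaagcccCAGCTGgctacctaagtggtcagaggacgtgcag
Cox8a: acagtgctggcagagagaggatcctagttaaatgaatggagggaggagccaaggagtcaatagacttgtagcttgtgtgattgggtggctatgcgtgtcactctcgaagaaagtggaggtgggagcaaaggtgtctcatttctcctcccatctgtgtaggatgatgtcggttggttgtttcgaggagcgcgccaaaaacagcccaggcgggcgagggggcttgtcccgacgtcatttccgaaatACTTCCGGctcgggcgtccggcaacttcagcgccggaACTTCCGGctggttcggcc
Cox6a1: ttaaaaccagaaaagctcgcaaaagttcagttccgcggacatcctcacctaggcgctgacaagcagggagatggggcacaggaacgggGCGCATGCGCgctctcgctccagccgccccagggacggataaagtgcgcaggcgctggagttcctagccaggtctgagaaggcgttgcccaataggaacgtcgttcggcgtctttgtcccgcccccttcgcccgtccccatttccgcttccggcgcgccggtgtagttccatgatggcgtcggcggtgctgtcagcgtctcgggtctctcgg
The Cox8b window held the E-box CAGCTG, bound by muscle regulators of the bHLH class, at -19 and at 16 from the start. The Cox8a window held the GABPA motif CCGGAAGT on the other strand at -6 and at 31, and the Cox6a1 window held the NRF1 motif, the half-site GCGCA followed by its reverse complement, at -162. NRF1 and GABPA are regulators of nuclear genes for mitochondrial proteins. The Cox7a1 and Cox7a2 windows had no match to any of the motifs searched.

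Motifs were searched on both strands in the 73 promoters listed for 68 of the 84 members and in all 32851 promoters of that length. NRF1 (GCGCA and its reverse complement) was in 6.85% of member promoters and 0.971% of all promoters, YY1 (AAGATGGCG) in 9.59% and 1.40%, and ESRRA (AAGGTCA) in 11.0% and 4.72%. GABPA (CCGGAAGT) was in 6.85% and 3.89%. The E-box (CAGCTG) went the other way, with 8.22% of member promoters and 16.3% of all promoters, and no member promoter held the MEF2 motif, found in 3.19% of all promoters. These letters describe the windows only.

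Of the 84 members, 81 had at least 0.65 CPM of total counts in at least 3 libraries and were tested among 15070 genes. All other CPM are counts scaled to library size after TMM normalization. Uqcr11, a small subunit of complex III, had 2 counts in f/f 2, 1 count in control 2 and 0 in the other libraries. It has 2 near-identical pseudogene copies, a limit described below, so these counts need not show its level. Cox7b2 and Cox8c, isoforms of testis, had 0 counts in all 7 libraries, which allows at most 0.157 to 0.178 CPM at a limit of 3 counts (counting error only). Levels of the 81 tested members in the controls spanned from 2.10 CPM per kb of exon for Sdhd to 722 CPM per kb for Atp5b. Medians were 68.5 CPM per kb in complex I, 92.3 in complex II, 104 in complex III, 98.3 in complex IV and 115 in complex V.

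**Figure D1:**
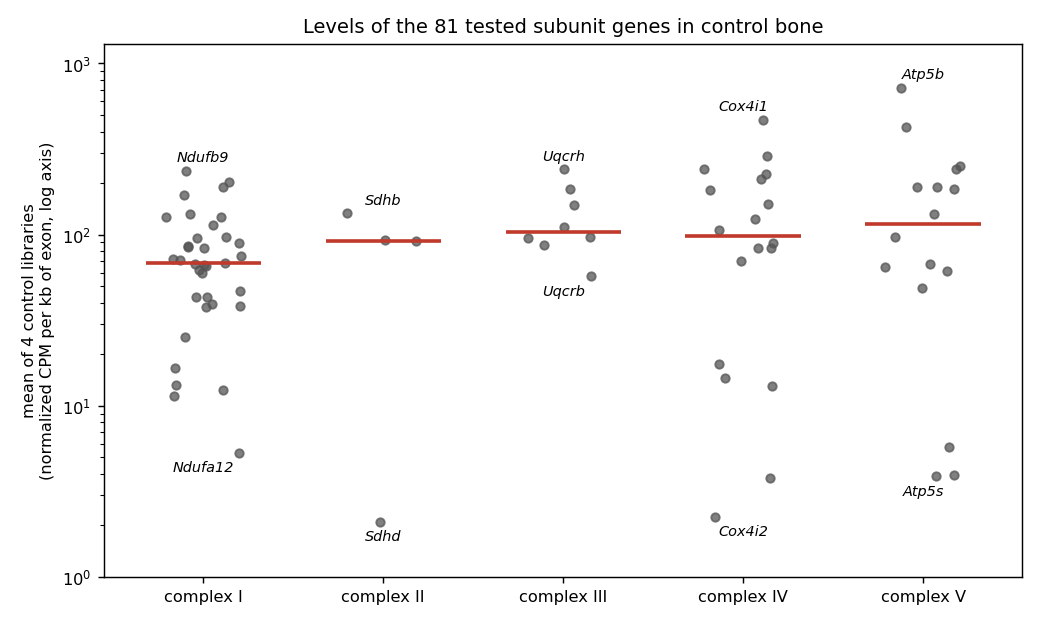
Mean control level of each tested subunit gene (1 point a gene, n = 4 control libraries) in normalized CPM per kb of exon on a log axis, by complex, with the median as a red line. Atp5b (722) and Cox4i1 (471) were the highest, and Sdhd (2.10) and Cox4i2 (2.24) the lowest.

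The highest levels belonged to the catalytic beta subunit of ATP synthase Atp5b (722 CPM per kb), Cox4i1 (471), which is the widely expressed form of complex IV subunit 4, and the alpha subunit Atp5a1 (423). Cox6b1 followed at 287 CPM per kb and Atp5e at 253. Low values need care, because 23 members had at least 1 near-identical pseudogene copy in the annotated transcripts, defined as 100 bases or more at 95% identity or more. Atp5l, with 10 copies, had 5.76 CPM per kb, and Cox7c, with 4, had 14.5. Reads that map equally well to a gene and its copies may have been lost or split in the authors' counting. A further limit is that 17 members overlap another counted gene on the genome, and the strand setting of the counting is not given in the sources used here.

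Summed over the members, levels were 8452, 8410 and 9060 CPM in the libraries labelled f/f and 8807, 7192, 8232 and 10727 CPM in the controls. The f/f values lay inside the range of the controls, of which control 2 was the lowest and control 4 the highest. Members took 0.722 to 0.887% of all counts of a library.

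No member passed the test between genotypes. Adjusted p-values (edgeR quasi-likelihood test, Benjamini-Hochberg over 15070 genes) were 0.51 to 0.999 for the 81 members, and 0 genes of the whole table were called higher (0%) or lower (0%), with 0.228 as the lowest adjusted p. At an unadjusted p under 0.05, 3 members were higher in the libraries labelled f/f (3.70%, against 4.64% of all genes tested) and 0 were lower (against 5.02%). Those 3 were Cox8b, Ndufa5 and Cox7a1. Without control 3 the number was 11, where 7.35% of all genes were higher at that p. Without f/f 1, f/f 2, control 1 or control 4 it was 1, each time Cox8b. In these fits 1.81%, 2.11%, 7.27% and 3.22% of all genes were higher, in that order. The libraries labelled f/f were all above every control for 8 members (9.88%, against 5.04% of all genes) and all below for 0 (against 6.3%). The 8 were Ndufa1, Ndufa5, Ndufb5 and Ndufv2 of complex I, Sdha of complex II, Uqcrc2 of complex III, and Cox7b and Cox8b of complex IV. By the limma test with library quality weights, 5 members were called higher and 1 lower, where 7.64% and 7.52% of all genes were called. That setting is the nearest here to the test of the study, which also blocked on collection day and reported genes called in both directions. DESeq2 called 0 members (0.159% and 0.319% of all genes higher and lower).

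Differences of the members were small and, over all 7 libraries, balanced in sign. The log2 fold change was above 0 for 43 members (53.1%, against 51.3% of all genes) and below 0 for 38, with a median of 0.01, as over all genes (0.01). Its median size without sign was 0.15 for members and 0.26 for all genes, and its standard error had a median of 0.20 and 0.25. Median log2 fold changes by complex were 0.01 in complex I, 0.08 in II, 0.06 in III, 0.02 in IV and -0.02 in V.

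This balance depended on controls 1 and 4. Without them, 73 of 81 members were above 0 (90.1%, against 51.7% of all genes), with a median log2 fold change of 0.16 against 0.01 over all genes. The count was 34 of 35 in complex I, 4 of 4 in II, 8 of 8 in III, 13 of 18 in IV and 14 of 16 in V. Still 0 members were called by edgeR in that fit, where 1 gene of the whole table was called higher and 1 lower. At an unadjusted p under 0.05, 9 members were higher, where 10.3% of all genes were. Within the only cross with both genotypes, 70 of 81 members were higher in f/f 3 than in control 3 (86.4%, against 50.6% of all genes; median log2 ratio 0.13 against 0.00), a comparison of 1 library with 1. Both libraries are also in the fit without controls 1 and 4, so this count is not independent of that fit. That fit also keeps control 2, the control with the lowest sum, and without control 2 alone 35 members were above 0. The setting with controls 1 and 4 left out was chosen after their scores had been seen.

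**Figure D2:**
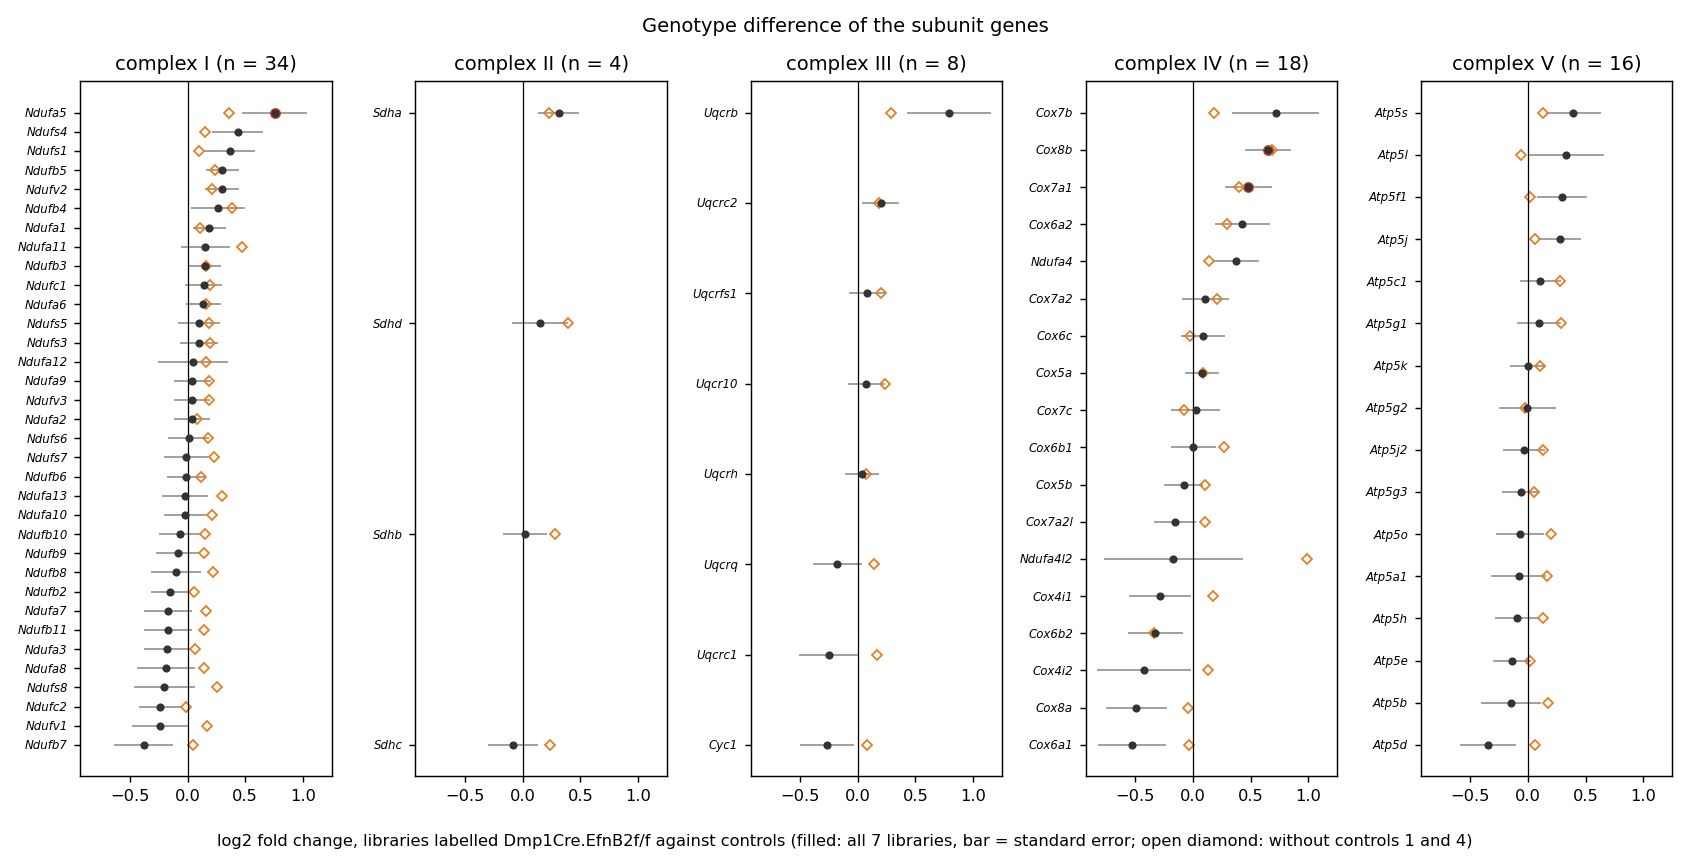
Log2 fold change between the libraries labelled Dmp1Cre.EfnB2f/f and the controls for 80 of the 81 tested members by complex. Filled points with bars (standard error) use all 7 libraries, a red rim marks an unadjusted p under 0.05 in edgeR, and open diamonds leave out controls 1 and 4; 43 filled points and 72 diamonds lie above 0.

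Of the 3 members with the lowest p, Cox8b and Cox7a1 are muscle isoforms of complex IV. Cox8b, the muscle form of subunit 8, lies on chromosome 7 from 140898942 to 140900446 and had 70.4, 63.6 and 76.3 CPM in f/f 1 to 3 and 55.4, 36.3, 51.2 and 35.6 CPM in controls 1 to 4. Every library labelled f/f was above every control, with 63.6 CPM as the lowest of the former and 55.4 CPM as the highest of the latter. The log2 fold change was 0.65 ± 0.20 (SE) with an unadjusted p of 0.0108 and an adjusted p of 0.510 in edgeR. Over the alternatives the adjusted p ran from 0.0146 (limma with quality weights) to 1.00. In the shared cross, f/f 3 had 76.3 CPM and control 3 had 51.2 CPM.

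Cox7a1, the muscle form of subunit 7a, had 48.9, 38.2 and 41.0 CPM in the libraries labelled f/f against 32.9, 25.9, 38.9 and 24.6 CPM in the controls. Control 3 lay above f/f 2, so the groups overlapped, and the log2 fold change was 0.48 ± 0.20 (adjusted p = 0.510, edgeR), against 0.074 when blocked on parent cross, a fit that rests on f/f 3 and control 3 alone. Cox6a2, the muscle form of subunit 6a, whose gene overlaps Itgad, had 78.2, 59.7, 95.5 and 48.1 CPM in the 4 controls and 102, 85.3 and 97.5 CPM in the 3 libraries labelled f/f. It overlapped as well, with control 3 above f/f 2, and its log2 fold change was 0.43 ± 0.24 (adjusted p = 0.520, edgeR). This was 0.28 without control 4 and 0.029 when blocked on parent cross.

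Their widely expressed partners had other patterns. Cox8a had 82.9, 92.2 and 105 CPM in f/f 1 to 3 and 141, 102, 90.0 and 191 CPM in controls 1 to 4, with the highest levels in controls 4 and 1. Cox6a1 did likewise, with 75.6, 82.1 and 94.6 CPM in the libraries labelled f/f against 123, 91.2, 80.8 and 190.5 CPM in the controls. Log2 fold changes were -0.49 ± 0.27 and -0.53 ± 0.29, and were -0.04 and -0.03 without controls 1 and 4 and 0.22 and 0.23 when blocked on parent cross. Cox7a2, which overlaps Tmem30a, was low, with 9.65, 8.26, 10.1 and 11.3 CPM in the 4 controls and 8.28, 11.9 and 11.6 CPM in the 3 libraries labelled f/f, and its log2 fold change was 0.11 ± 0.21 (0.21 without controls 1 and 4).

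Within a library, the ratio of an isoform to its partner does not depend on scaling. The ratio of Cox8b to Cox8a, each per kb, was 1.27, 1.04 and 1.09 in the libraries labelled f/f and 0.591, 0.533, 0.854 and 0.281 in the controls. All 3 of the former were above every control. The difference was 1.11 ± 0.40 on the log2 scale (SE; two-sided exact permutation test, p = 0.0571, adjusted over 3 ratios 0.171), and 0.74 without controls 1 and 4. For Cox6a2 to Cox6a1 the ratio per kb was 1.09, 0.841 and 0.833 against 0.516, 0.530, 0.956 and 0.204, where control 3 was above f/f 2 and f/f 3. That difference was 0.93 ± 0.55 (exact permutation test, p = 0.114, adjusted 0.171) and was 0.36 without controls 1 and 4 and 0.51 without control 4 alone. Cox7a1 was above Cox7a2 in every library, with ratios per kb of 12.2, 6.62 and 7.25 against 7.03, 6.45, 7.95 and 4.47, a log2 difference of 0.40 ± 0.31 (exact permutation test, p = 0.314, adjusted 0.314). Without f/f 1 it was 0.13, and without control 4 it was 0.23. Cox7a2 had 143 to 218 counts a library and its gene overlaps Tmem30a, a limit described above. The size of these ratios therefore need not show the balance of the 2 isoforms.

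Markers of fast skeletal muscle were above 0, as the muscle isoforms were, and followed them library by library only in part. All 10 of 10 had a log2 fold change above 0 (median 0.81), against 51.3% of all genes. Of the 10, 5 had an unadjusted p under 0.05 in edgeR, where 4.64% of all genes were higher. Without controls 1 and 4, 9 of 10 were above 0 (median 0.59) and 0 reached that p. Their summed level was 28446 to 43805 CPM in the libraries labelled f/f and 13414 to 30616 CPM in the controls, and no marker was at 0, with Myh4, the fast myosin heavy chain, at 1859 to 16648 CPM. The sum was 28446 CPM or more in f/f 1 to 3 and control 3, and 15669 CPM or less in controls 1, 2 and 4. Cox7a1 (38.2 CPM or more against 32.9 CPM or less) and Cox6a2 (85.3 against 78.2 CPM) split the same way. In control 3 the sum was 30616 CPM, above the 28446 CPM of f/f 1. Cox8b was lower in control 3 (51.2 CPM) than in f/f 1 (70.4 CPM) and control 1 (55.4 CPM). The sum was highest in f/f 2 (43805 CPM). Of the 3 libraries labelled f/f, that library had the lowest Cox8b (63.6 CPM), Cox7a1 (38.2 CPM) and Cox6a2 (85.3 CPM). Controls 1 and 2 had sums of 13696 and 13414 CPM, with Cox8b at 55.4 and 36.3 CPM. Slow muscle markers gave another order, with a sum of 240 to 1567 CPM in the libraries labelled f/f and 112 to 1654 CPM in the controls, and 6 of 6 above 0. The part of muscle RNA in the differences of Cox8b, Cox7a1 and Cox6a2 was not tested, and more muscle tissue and more of these RNAs per muscle fibre cannot be told apart in RNA of whole bone.

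**Figure D3:**
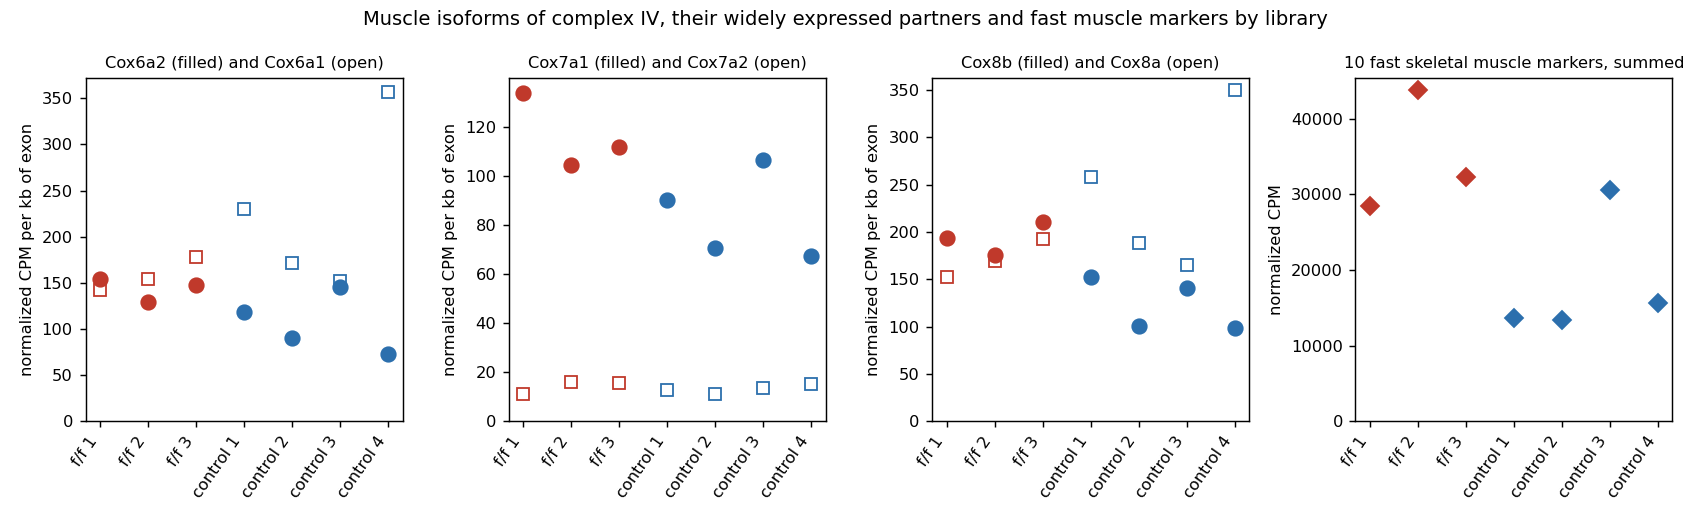
Levels in each library of the 3 muscle isoforms of complex IV (filled circles) and their widely expressed partners (open squares), in normalized CPM per kb of exon, with the summed level of 10 fast muscle markers in normalized CPM (diamonds). Red stands for libraries labelled Dmp1Cre.EfnB2f/f and blue for controls. Cox8b is above every control in all 3 red libraries. The muscle marker sum of control 3 (30616 CPM) lies within the range of the red libraries (28446 to 43805 CPM).

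The remaining tissue-restricted forms were low beside their partners. Cox4i2, the lung form of subunit 4, had 1.75, 1.17 and 0.747 CPM in f/f 1 to 3 and 2.25, 1.16, 1.07 and 2.04 CPM in controls 1 to 4. Its control level of 2.24 CPM per kb compares with 471 CPM per kb for Cox4i1, and its log2 fold change of -0.42 ± 0.41 turned to 0.13 without controls 1 and 4. Cox4i1 itself had 249, 262 and 275 CPM in the libraries labelled f/f against 364, 219.8, 244 and 450.5 CPM in the controls. Its log2 fold change of -0.29 ± 0.27 turned to 0.18 without controls 1 and 4.

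Cox6b2, a testis form of subunit 6b, had 7.60, 10.1, 11.4 and 13.3 CPM in the 4 controls and 10.1, 7.56 and 7.74 CPM in the 3 libraries labelled f/f. It was at 17.5 CPM per kb in the controls against 287 CPM per kb for Cox6b1, and its log2 fold change was -0.32 ± 0.24 (adjusted p = 0.572 in edgeR and 0.0362 in limma with quality weights). Cox6b1 had 140.4, 145 and 151 CPM in f/f 1 to 3 and 152, 115, 127 and 187 CPM in controls 1 to 4, with a log2 fold change of 0.01 ± 0.19 that was 0.27 without controls 1 and 4, and limma with quality weights called it higher (log2 fold change 0.30, adjusted p = 0.0478). Ndufa4l2, a paralogue of Ndufa4 known from the response to low oxygen, varied most between libraries, with 3.66, 2.33 and 3.74 CPM in the libraries labelled f/f against 8.49, 2.08, 1.19 and 2.75 CPM in the controls. Control 1 stood far above the others, and the log2 fold change was -0.17 ± 0.60 with it and 0.69 without it. Ndufa4, the subunit of complex IV once assigned to complex I, had 77.2, 112, 134 and 94.2 CPM in the 4 controls and 133, 136 and 136 CPM in the 3 libraries labelled f/f and a log2 fold change of 0.37 ± 0.20, and was lowest in controls 1 and 4, without which the log2 fold change was 0.14.

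Complex I, which oxidizes NADH, had 35 members, of which 18 were above 0 and 17 below 0. Ndufa5, an accessory subunit, had 43.7, 39.4 and 37.6 CPM in f/f 1 to 3 and 15.9, 28.5, 34.4 and 16.6 CPM in controls 1 to 4. Every library labelled f/f was above every control, controls 1 and 4 were the lowest, and the log2 fold change was 0.75 ± 0.28 (unadjusted p = 0.0268, adjusted p = 0.510, edgeR). It was 0.36 without controls 1 and 4. Ndufb5, another accessory subunit, had 78.8, 79.0 and 90.2 CPM in the libraries labelled f/f against 62.5, 66.0, 74.4 and 65.3 CPM in the controls, again with no overlap, and a log2 fold change of 0.30 ± 0.14 (adjusted p = 0.512, edgeR). The log2 fold change was 0.24 without controls 1 and 4.

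Ndufs1 and Ndufv1, which hold redox centres of complex I, lay on opposite sides of 0. Ndufs1, the largest of the iron-sulfur subunits, had 94.0, 120.2, 151 and 85.4 CPM in the 4 controls and 159, 145 and 132 CPM in the 3 libraries labelled f/f. Controls 4 and 1 were the lowest for it, and its log2 fold change was 0.36 ± 0.22 with all libraries, 0.10 without those controls and -0.20 when blocked on parent cross. Ndufv1, which binds NADH and flavin, had 150.4, 147 and 159.9 CPM in f/f 1 to 3 and 193, 127, 145 and 254 CPM in controls 1 to 4, where controls 4 and 1 were the highest. Its log2 fold change of -0.24 ± 0.25 turned to 0.16 without those controls.

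Complex II, or succinate dehydrogenase, also belongs to the citric acid cycle, and its 4 subunits are all encoded in the nucleus. Sdha, the flavoprotein, had 363, 308 and 305 CPM in the libraries labelled f/f against 242, 255, 303 and 249.5 CPM in the controls. The lowest library labelled f/f (305 CPM) was just above control 3 (303 CPM), so the groups did not overlap, and the log2 fold change was 0.31 ± 0.17 (adjusted p = 0.520, edgeR). Sdhb, the iron-sulfur subunit, had 161, 113, 127 and 173 CPM in the 4 controls and 156, 132 and 148 CPM in the 3 libraries labelled f/f and a log2 fold change of 0.02 ± 0.19. This was 0.28 without controls 1 and 4 (unadjusted p = 0.0463, adjusted p = 0.275, edgeR). Sdhd, a membrane anchor, was the lowest of the tested members at 2.10 CPM per kb, with 3.32, 2.67 and 2.99 CPM in f/f 1 to 3 and 3.20, 2.31, 2.25 and 3.03 CPM in controls 1 to 4 and a log2 fold change of 0.15 ± 0.24 (0.39 without controls 1 and 4). Its fellow anchor Sdhc was at 92.9 CPM per kb.

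In complex III, or cytochrome bc1, 5 of the 8 tested members were above 0. Uqcrb, a small subunit with 3 pseudogene copies, had the largest log2 fold change of all members, 0.79 ± 0.36 (unadjusted p = 0.0584, adjusted p = 0.510, edgeR). Its levels were 54.8, 50.4 and 43.3 CPM in the libraries labelled f/f against 16.6, 35.8, 45.5 and 16.6 CPM in the controls, and control 3 lay above f/f 3. Controls 1 and 4 were far below the rest, and without them the log2 fold change was 0.29. Blocking on the parent cross gave -0.073. Uqcrc2, a core subunit whose gene overlaps Pdzd9, had 146, 148, 181 and 176 CPM in the 4 controls and 191, 184 and 185 CPM in the 3 libraries labelled f/f, with no overlap between groups and a log2 fold change of 0.20 ± 0.16 (adjusted p = 0.597, edgeR).

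Uqcrfs1 and Cyc1, redox subunits of complex III, lay on opposite sides of 0. Uqcrfs1, the Rieske iron-sulfur protein, had 132, 133 and 138 CPM in f/f 1 to 3 and 128, 109, 125 and 147 CPM in controls 1 to 4. The fitted log2 fold change was 0.08 ± 0.16 (0.20 without controls 1 and 4). Cyc1, cytochrome c1, had 86.4, 86.3 and 111 CPM in the libraries labelled f/f against 119.6, 82.9, 96.2 and 157 CPM in the controls, highest in control 4, and a log2 fold change of -0.27 ± 0.24 that was 0.08 without controls 1 and 4.

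Complex IV had 10 of 18 tested members above 0. Besides the isoforms, Cox7b, a subunit with 2 pseudogene copies, had 39.5, 98.5, 104 and 37.8 CPM in the 4 controls and 123, 114 and 109 CPM in the 3 libraries labelled f/f. The groups did not overlap, yet controls 2 and 3 were near the libraries labelled f/f and controls 1 and 4 were far below them. The log2 fold change was 0.72 ± 0.38 (adjusted p = 0.517, edgeR), and 0.19 without controls 1 and 4.

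Complex V, the ATP synthase, had 7 of 16 members above 0, and none of them was separated by genotype. Atp5b, the catalytic beta subunit, had 1155, 1201 and 1328 CPM in f/f 1 to 3 and 1395, 1032, 1152 and 1849 CPM in controls 1 to 4. Control 4 was the highest and control 2 the lowest, and the log2 fold change was -0.14 ± 0.26. Atp5a1, the alpha subunit, had 955, 937 and 1029 CPM in the libraries labelled f/f against 1028, 802, 941 and 1345 CPM in the controls and a log2 fold change of -0.08 ± 0.24. Without controls 1 and 4 these changes were 0.17 for Atp5b and 0.16 for Atp5a1.

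The members of complex V with the lowest p were smaller ones. Atp5s, a coupling factor, had 4.88, 6.18, 7.65 and 4.35 CPM in the 4 controls and 7.15, 7.83 and 7.74 CPM in the 3 libraries labelled f/f. The fitted log2 fold change was 0.39 ± 0.24 (adjusted p = 0.530, edgeR). Atp5j, subunit F6 of the stalk, whose gene overlaps Gabpa, had 62.6, 56.6 and 58.8 CPM in f/f 1 to 3 and 41.0, 52.2, 61.5 and 41.3 CPM in controls 1 to 4 and a log2 fold change of 0.28 ± 0.18 (adjusted p = 0.553, edgeR). Both were lowest in controls 1 and 4, and without them the log2 fold changes were 0.13 for Atp5s and 0.064 for Atp5j.

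For the 28 named members that were tested, two-sided exact permutation tests on log2 CPM gave unadjusted p from 0.0571 to 0.943. The lowest p that 35 splits allow is 0.0286, so adjustment over 28 tests left little room to pass 0.05 (lowest adjusted value 0.369, Benjamini-Hochberg). Some of these members were named for their low p.

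Controls 1 and 4 stood apart over all genes, and the members shared in this. The ratio of the highest to the lowest control had a median of 1.58 for the members, against 1.77 for all genes tested, and was at least 2 for 11 members (13.6%, against 36.7%). Among the libraries labelled f/f the median was 1.16, against 1.26, and 1 member reached 2 (1.23%, against 7.76%). For 14 members controls 1 and 4 were both below controls 2 and 3 (17.3%, against 32.9% of all genes), and for 47 they were both above (58.0%, against 36.3%). Cox7b, Uqcrb, Ndufa5, Ndufs1, Ndufs4 and Atp5f1 were among the former and Cox4i1, Cox6a1, Cox8a, Uqcrc1 and Ndufb7 among the latter.

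**Figure D4:**
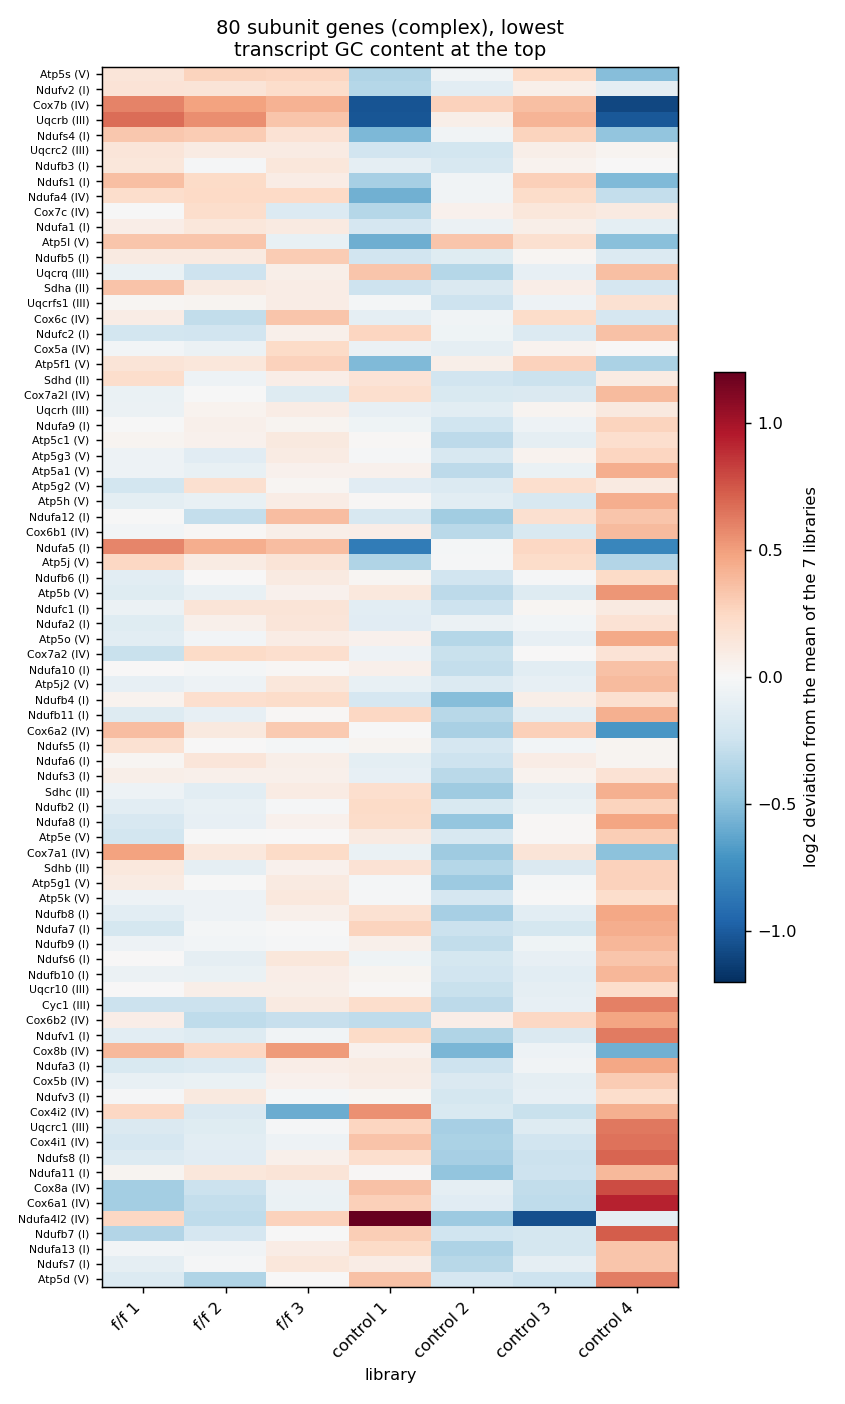
Log2 deviation of 80 of the 81 tested members, each from its mean over the 7 libraries (colour), with genes ordered by transcript GC content from lowest (top) to highest (bottom) and libraries in columns. Controls 1 and 4 are mostly blue at the top and mostly red at the bottom, and f/f 1, f/f 2 and control 3 mostly the reverse. Control 2 is mostly blue from top to bottom (median deviation -0.23) and f/f 3 mostly red (median deviation 0.09).

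The GC content of the transcripts went with this order. Median GC content was 47.6% for the 14 members low in controls 1 and 4 and 55.1% for the 47 high in them. Across the 81 members, Pearson's r between GC content and the deviation of a library was 0.68 in control 1 and 0.64 in control 4, but -0.55 and -0.63 in controls 2 and 3 and -0.49, -0.59 and -0.34 in f/f 1 to 3. These correlations are over genes of the same libraries, which are not independent replicates, and the same measure over 14218 genes of the whole table was 0.59 and 0.58 in controls 1 and 4 and -0.48 to -0.05 in the others.

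The genotype difference was lower for members of high GC content. Of the 27 members with the lowest GC content (39.0 to 50.5%), 22 had a log2 fold change above 0 (median 0.15), and of the 27 with the highest (55.1 to 61.1%), 7 did (median -0.17). Without controls 1 and 4 the counts were 23 and 24, with medians of 0.14 and 0.16, and r between log2 fold change and GC content went from -0.62 to 0.14. The part of GC content in the differences between libraries was not tested.

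**Figure D5:**
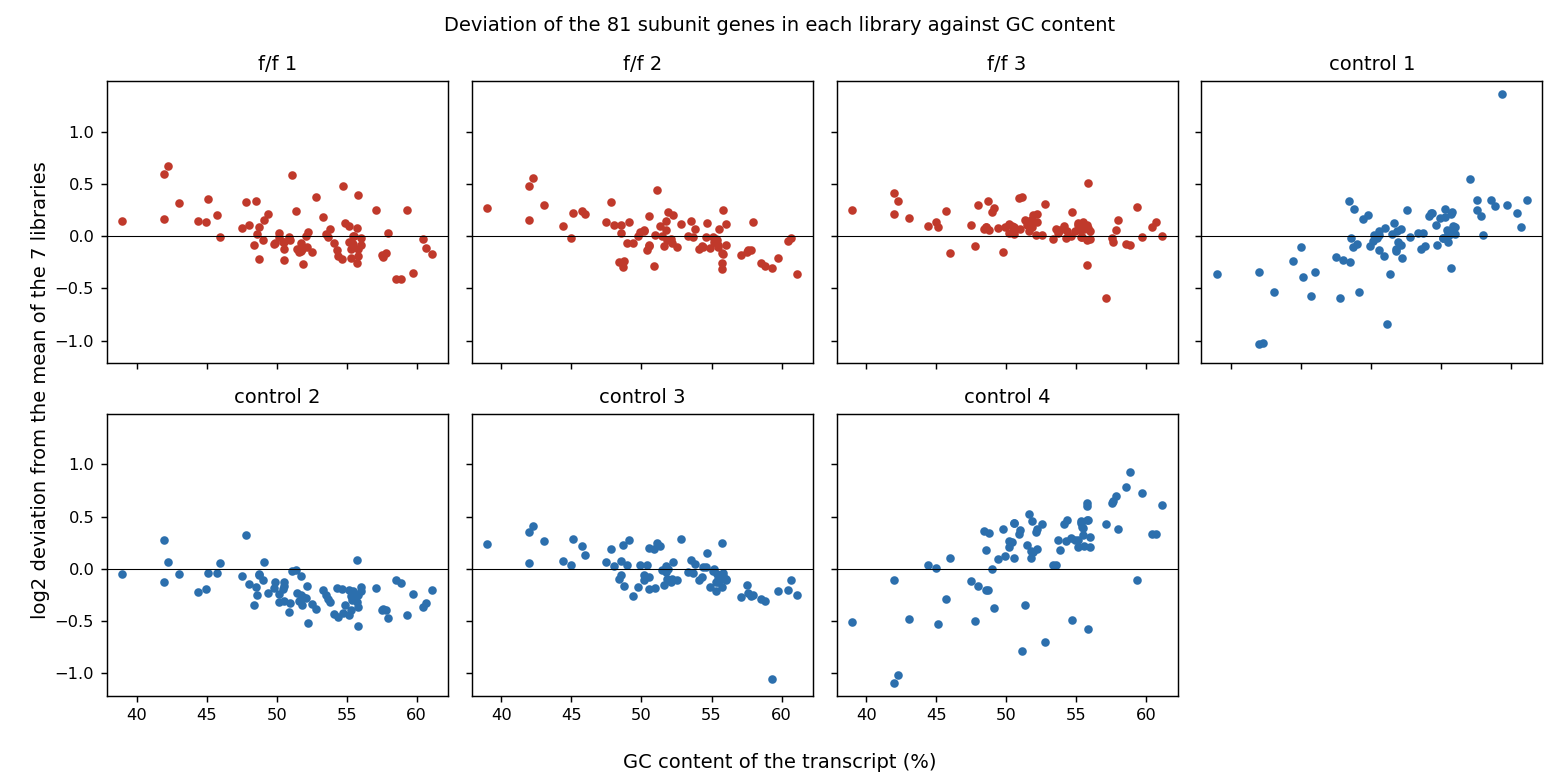
Log2 deviation of the 81 tested members from their mean over 7 libraries against the GC content of the transcript in percent, with 1 panel a library and 1 point a gene (red, libraries labelled f/f; blue, controls). The points rise with GC content in controls 1 and 4 (r = 0.68 and 0.64) and fall in the other 5 libraries (r = -0.34 to -0.63).

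Markers of red blood cell precursors also differed in level between libraries. Of 8 erythroid markers tested, 0 were above 0 and 6 were lower at an unadjusted p under 0.05 in edgeR (against 5.02% of all genes). Their summed level was 9222 to 18040 CPM in the libraries labelled f/f and 20478 to 57511 CPM in the controls, with control 4 the highest, and no marker was at 0. Again 0 of 8 were above 0 without controls 1 and 4, and 2 were lower at that level (against 7.20% of all genes in that fit). Granulocyte markers summed to 12021 to 15083 CPM against 17189 to 20085 CPM, and 0 of 7 were above 0. The part of these cells in the levels of the members was not tested.

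Subunits that mitochondrial DNA encodes were counted as well, and are background to the nuclear ones. All 12 tested were above 0 (against 51.3% of all genes), with a median log2 fold change of 0.80. Among them 1, ATP8, had an unadjusted p under 0.05 (log2 fold change 1.68 ± 0.66, adjusted p = 0.510, edgeR), where 4.64% of all genes were higher. The summed level of these subunits was 16748, 9779 and 7836 CPM in the libraries labelled f/f and 3810, 8592, 11879 and 2704 CPM in the controls. Controls 1 and 4 were the lowest, and control 3 was above f/f 2 and f/f 3. Leaving out controls 1 and 4, 12 of 12 were above 0, with a median of 0.28. The sum of the nuclear members, in contrast, was highest in control 4.

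Enzymes that feed electrons to the chain were mostly above 0. Of 17 genes for pyruvate dehydrogenase and the citric acid cycle, 13 were above 0 (median 0.22), against 51.3% of all genes tested. At an unadjusted p under 0.05, 2 were higher (against 4.64% of all genes) and 0 were lower (against 5.02%). In all 3 libraries labelled f/f, 6 were above every control (against 5.04%) and 0 were below (against 6.3%). All 17 of 17 were above 0 (median 0.20) without controls 1 and 4, against 51.7% of all genes. Idh3a, a catalytic subunit of isocitrate dehydrogenase, had 150.1, 146 and 136 CPM in the libraries labelled f/f against 66.6, 87.7, 132 and 80.3 CPM in the controls. The fitted log2 fold change was 0.65 ± 0.23 (adjusted p = 0.510, edgeR). Pdha1, of the pyruvate dehydrogenase complex, had 116, 125, 153 and 95.9 CPM in the 4 controls and 195, 156 and 155 CPM in the 3 libraries labelled f/f and a log2 fold change of 0.46 ± 0.20 (adjusted p = 0.510, edgeR). No test of the difference between this list and the subunits was made.

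Factors that assemble the complexes were balanced, with 23 of 41 tested above 0, a median log2 fold change of 0.06 and 0 at an unadjusted p under 0.05 in either direction. With controls 1 and 4 left out, 27 of 41 were above 0 (median 0.07) and 3 were higher at that p (against 10.3% of all genes in that fit). The mitochondrial ribosome translates the subunits encoded in mitochondrial DNA. Of its 77 tested genes, 22 were above 0 (median -0.10), against 51.3% of all genes. Again 0 had an unadjusted p under 0.05 in edgeR (against 4.64% of all genes higher and 5.02% lower). The number above 0 was 56 of 77 (median 0.06) without controls 1 and 4, against 51.7% of all genes. Among 14 regulators of mitochondrial biogenesis, 8 were above 0 (6 without controls 1 and 4) and 1 was higher at that level (against 4.64% of all genes). This was Ppargc1a, the coactivator PGC-1α, with 15.1, 7.28 and 7.90 CPM in f/f 1 to 3 and 5.35, 4.39, 8.42 and 2.59 CPM in controls 1 to 4. Control 3 lay above f/f 2 and f/f 3, and the log2 fold change was 0.96 ± 0.41 (adjusted p = 0.510, edgeR). Nrf1 and Gabpa, whose motifs were searched in the promoters, had log2 fold changes of -0.24 ± 0.19 and 0.27 ± 0.28.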

How the data were processed

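Per the labels and the study's methods, the authors sequenced bone RNA (TruSeq, paired-end reads), demultiplexed with bcl2fastq 2.17.1.14, mapped to mm10 with Rsubread and counted on its built-in annotation with featureCounts. The deposited values are raw counts for each of 27179 Entrez genes, with the exon length beside them. Rsubread's version and the strand setting are not given in the sources used here. The expression filter, 0.65 CPM of total counts or more in 3 libraries or more, passed 16302 genes, of which 1232 were left out by class (immunoglobulin segments, predicted genes, pseudogenes, ribosomal RNA, Y-linked genes, Xist and genes without a symbol). The remaining 15070 were tested in edgeR 4.0.16 (R 4.3.3; TMM, robust quasi-likelihood), adjusted by Benjamini-Hochberg and called under 0.05. The standard error is the log2 fold change over the square root of F. limma 3.58.1 (quantile normalization, prior count 2, trend) and DESeq2 1.42.0 were alternatives, besides other scalings, filters, blocks and each library left out. The collection day, a block in the study, is not in the labels used here. Tests were tried on simulated data.

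GC content came from the GENCODE vM21 transcript closest in length to the counted exons. The named members were the tissue-restricted isoforms of complex IV and their partners, chosen subunits with catalytic or redox sites (Ndufs1, Ndufv1, Sdha, Sdhb, Uqcrfs1, Cyc1, Atp5a1 and Atp5b), and the 2 with the lowest p in each complex; 1 further subunit of this set is not reported here. The members, the gene lists and the tests were chosen with earlier results of these data known. At 17245556 to 22075778 counts a library, every tested member had at least 14 counts in each.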

Additional observations from a re-analysis of the deposited data

How the results depend on the processing

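No member was called in edgeR under any scaling, filter, block or left-out library. These settings called at most 1 gene of the whole table higher and at most 2 lower. A count of 0 therefore does not set the members apart from other genes. The differences given for the ratios of isoforms kept their direction with each library left out, without controls 1 and 4 and without division by length; with fewer libraries the permutation p cannot pass 0.05, so it bears on nothing there. limma with quality weights called 5 members higher and 1 lower (against 7.64% and 7.52% of all genes). At an unadjusted p under 0.05 it had 29 higher and 1 lower, against 15.2% and 17.8% of all genes. Its median log2 fold change in complex I was 0.20, and 70 members were above 0, against 46.4% of all genes. In limma without weights 9 were higher at that p (4.37% of all genes), and with library size only 5 were (5.65%). The replicate block gave 1 (2.39%), the parent cross block 0 (1.06%) and the fit without controls 1 and 4 gave 9 (10.3%). With each library left out in turn, 1 to 11 members were higher at that level (1.81 to 7.35% of all genes). From 0 to 2 were lower (1.04 to 8.47%), and 0 were called. Members above 0 numbered 70 with the parent cross block (against 50.6% of all genes) and 73 without controls 1 and 4 (against 51.7%).

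Log2 fold changes changed sign in some settings, among them large ones (Uqcrb 0.79, Cox6a1 -0.53, Cox8a -0.49 and Ndufs1 0.36 with all libraries), and the cause was not tested. With the parent cross block, which rests on f/f 3 and control 3 alone, they were 0.23 for Cox6a1, 0.22 for Cox8a, 1.65 for Ndufa4l2, 0.17 for Cox4i1, -0.20 for Ndufs1, 0.14 for Ndufv1, 0.21 for Cyc1, 0.13 for Atp5a1, 0.21 for Atp5b, -0.073 for Uqcrb and -0.064 for Atp5j. Without controls 1 and 4 they were 0.13 for Cox4i2, 0.99 for Ndufa4l2, 0.18 for Cox4i1, 0.16 for Ndufv1, 0.084 for Cyc1, 0.16 for Atp5a1 and 0.17 for Atp5b. limma with quality weights gave 0.26 for Ndufa4l2, 0.23 for Cox4i1, 0.16 for Ndufv1, 0.0076 for Cyc1, 0.072 for Atp5a1 and 0.016 for Atp5b. Without weights it gave -0.012 for Cox7a2, 0.0017 for Ndufa4l2, 0.13 for Atp5a1, 0.027 for Atp5b and -0.023 for Sdhd. DESeq2 and its size factors in edgeR gave -0.018 for Cox6b1 and -0.0031 for Sdhb, and keeping all gene classes gave -0.0044 for Cox6b1. Atp5a1 was 0.019 with library size only. Leaving out 1 library gave -0.45 to 0.69 for Ndufa4l2, -0.090 to 0.15 for Cox6b1, -0.078 to 0.12 for Sdhb, -0.18 to 0.073 for Atp5a1 and -0.25 to 0.040 for Atp5b.

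Replicate numbers did not pair the libraries: same-numbered libraries deviated from their group means with r of -0.15, 0.07 and -0.45, and 0 of 6 correlated best with its own number. With the replicate block, 0 members were called, where 1 gene of the whole table was called higher and 0 lower. Log2 fold changes with that block were 0.13 for Ndufa4l2, 0.082 for Atp5a1 and 0.051 for Atp5b. With 3 and 4 libraries, the smallest p of a permutation is 0.0286. Depth limits Cox4i2, Ndufa4l2, Sdhd and Atp5g2, whose levels were a few CPM, and near-identical copies limit the levels of 23 members.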

Other observations

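Carriers and pores of the inner and outer mitochondrial membranes held a pair of isoforms like those of complex IV. Slc25a4, the adenine nucleotide carrier of heart and muscle, had 664, 643 and 684 CPM in the libraries labelled f/f and 387, 395, 632 and 315 CPM in the controls, with no overlap between groups. Its log2 fold change was 0.62 ± 0.26 (adjusted p = 0.51, edgeR). Slc25a5, the form of most other tissues, had 158, 171 and 191 CPM against 239, 188, 184 and 335 CPM, highest in controls 4 and 1, and its log2 fold change was -0.45 ± 0.24. Ucp2, a carrier abundant in white blood cells, had 411, 441 and 473 CPM against 787, 554, 556 and 1041 CPM. Every library labelled f/f was below every control, and the log2 fold change was -0.73 ± 0.27 (adjusted p = 0.51, edgeR). Of the 10 genes of this list that were tested, 7 were above 0. At an unadjusted p under 0.05, 1 (Slc25a4) was higher and 1 (Ucp2) was lower, against 4.64% and 5.02% of all genes. With controls 1 and 4 left out, 8 of these 10 were above 0, and 0 were higher and 1 was lower at that p (against 10.3% and 7.20% of all genes). Ucp1, the marker of brown fat, had 0.0563 CPM in f/f 1, 0.0524 in control 1 and 0.0578 in control 2, and 0 counts in the other libraries.

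Among 5 related genes that the symbol rule did not take, Usmg5, a small ATP synthase subunit, had 17.8, 16.2 and 19.6 CPM in the libraries labelled f/f and 10.7, 15.3, 15.9 and 13.6 CPM in the controls, with no overlap and a log2 fold change of 0.37 ± 0.19. Ndufab1, the acyl carrier of complex I, had a log2 fold change of -0.04 ± 0.21. Mb, the myoglobin of slow fibres and heart, had 601, 209 and 564 CPM against 628, 317, 430 and 343 CPM.

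Other cell types gave the following sums. Osteocyte markers summed to 255 to 501 CPM in the libraries labelled f/f and 155 to 618 CPM in the controls, osteoblast markers to 8135 to 14106 against 8201 to 41138 CPM, and osteoclast markers to 587 to 649 against 206 to 1246 CPM. Adipocyte markers summed to 103 to 134 against 56.5 to 190 CPM, and B lineage markers to 251 to 307 against 201 to 299 CPM. In these 5 lists 0 markers had an unadjusted p under 0.05 in edgeR. Endothelial markers summed to 379 to 456 against 292 to 382 CPM, with 5 of 5 above 0 and 2 of them, Emcn and Tek, higher at that level (against 4.64% of all genes). Without controls 1 and 4, the number higher at that level was 2 of 5 osteocyte, 4 of 6 osteoblast, 0 of 6 osteoclast, 3 of 4 adipocyte, 3 of 5 B lineage and 5 of 5 endothelial markers. In that fit, a setting chosen after the data had been seen, 10.3% of all genes were higher at that level.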
